A study of Homo sapiens with 9 samples.

Results

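The glycolytic enzymes described here are hexokinase HK1, phosphoglucose isomerase GPI, phosphofructokinase PFKM, the aldolases ALDOA and ALDOC, TPI1, PGK1, the enolases ENO1 and ENO2, and lactate dehydrogenase LDHA. They were taken by gene symbol from the probe-to-gene table supplied with the arrays. Of these 10 genes, 9 had a probe set under their own symbol, 1 each, out of 7713 genes so named, and GPI was not analysed here. All 9 lay above the intensity filter, which left out the dimmest 33.3% of probe sets by their mean over all arrays. Levels are probe set values on the log2 scale.

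LAN-5 is a human neuroblastoma cell line. S100B binds calcium and is released by glia, and outside cells it is known to act through the receptor RAGE. The 3 groups were LAN-5 cells given culture medium alone (untreated), cells given 0.5 nM S100B and cells given 5 µM S100B, with 3 arrays each. Per the design text, replicates within each group are biological. All groups were the same line, and the length of exposure is not given in the sources used here.

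Glycolysis splits glucose into pyruvate in the cytosol and yields ATP without oxygen. Several of its steps are served by isozymes encoded by different genes, which differ between tissues. ALDOC is the aldolase of brain and ENO2 the neuron-specific enolase, a serum marker of neuroblastoma, whereas ALDOA and ENO1 are widely expressed. Most of these genes are known as targets of the hypoxia-inducible factor, which binds DNA at a short core sequence.

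Over the 5831 tested probe sets the correlation was 0.993 to 0.997 within groups and 0.994 to 0.997 between them. Of 13 noradrenergic neuroblastoma markers 12 had a probe set and 11 lay above the filter, among them CHGA at 12.39, GATA3 at 11.93 and DBH at 10.44 log2 (means over 9 arrays), while tyrosine hydroxylase TH lay below it at 5.58. The mean of this list was 9.59 to 9.82 in untreated cells, 9.79 to 9.82 at 0.5 nM and 9.74 to 9.90 at 5 µM. Of 8 astrocyte markers 5 lay below the filter, including GFAP at 5.51 and AQP4 at 4.78. The mean of the astrocyte list was 5.69 to 5.72 in untreated cells, 5.68 to 5.72 at 0.5 nM and 5.66 to 5.74 at 5 µM. Of 10 mesenchymal and Schwann-like markers 7 had a probe set and 4 lay above the filter. These were VIM at 10.84, THY1 at 8.46, SOX10 at 6.39 and COL1A2 at 6.38. Of 6 leukocyte markers 4 had a probe set and 2 lay above it, CD3E at 7.29 and CD74 at 6.47, with PTPRC below it at 4.77. CD74, an MHC class II chaperone singled out after its values were seen, differed by -0.32 ± 0.10 (SE) at 5 µM and -0.25 ± 0.10 at 0.5 nM, without overlap with the untreated arrays (limma's adjusted p = 0.478 and 0.9999). CD3E differed by -0.02 ± 0.07 at 5 µM and -0.04 ± 0.07 at 0.5 nM. The 3' minus 5' signal of the GAPDH control, a measure of RNA integrity, was 0.23 to 0.30 log2 in untreated cells, 0.20 to 0.37 at 0.5 nM and 0.24 to 0.40 at 5 µM. The 18 spike-in controls averaged 8.70 log2 on untreated replicate 1, the lowest array, while the rest lay between 9.04 and 9.45. The part of these measures in the results was not tested.

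None of the 9 enzymes passed the test in any comparison. ALDOC lay farthest from the untreated level at 5 µM, at 85.7% of it, and the other 8 lay between 92.3% and 111.5%. Limma's adjusted p was 0.40 for ALDOC and 0.793 to 0.990 for the others, and 1 of the 9 had an unadjusted p under 0.05. In the same comparison 0.292% of all probe sets passed, and 6.84% had an unadjusted p under 0.05. At 0.5 nM 0 of 9 passed by limma, where 0% of all probe sets passed. There 0 had an unadjusted p under 0.05, against 3.29% of all probe sets. Between the doses 0 of 9 passed, where 0.257% of all probe sets passed. In that comparison 1 had an unadjusted p under 0.05, against 4.65% of all probe sets. Nor did limma's F test over the 3 groups call a member, with the lowest adjusted p at 0.784 for ALDOC, against 0.24% of all probe sets. In bulk RNA, fewer cells of a type and less RNA per cell cannot be told apart.

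**Figure D1:**
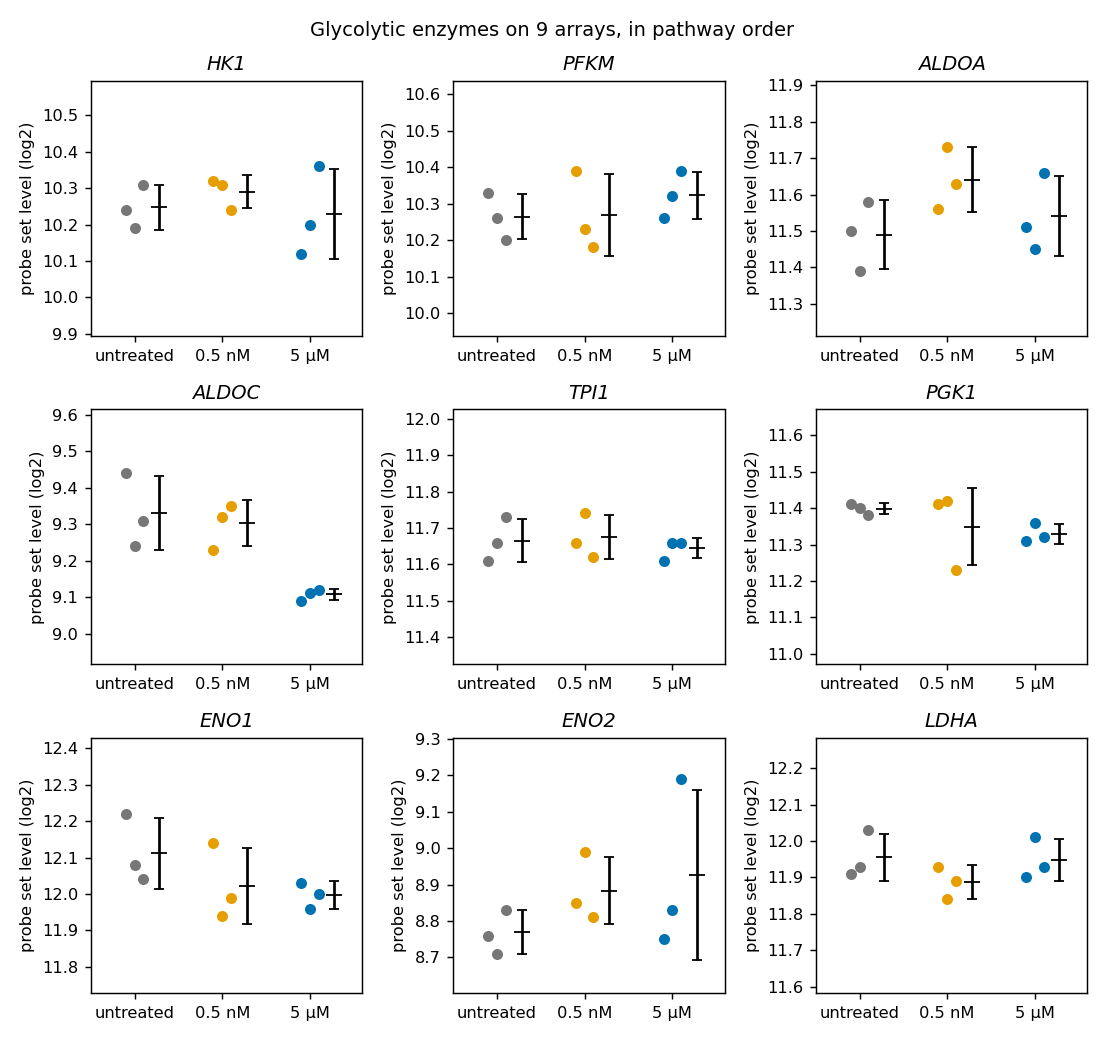
Level of each enzyme's probe set (log2, vertical axis, every panel spanning 0.7 log2) in untreated cells, at 0.5 nM and at 5 µM S100B, in pathway order. Points are single arrays in order of replicate number, bars the mean ± SD (n = 3), and the 3 ALDOC arrays at 5 µM, 9.09 to 9.12, lie below the other 6.

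The pathway opens with HK1, which phosphorylates glucose. HK1 read 10.24, 10.19 and 10.31 log2 in the 3 untreated arrays, 10.32, 10.31 and 10.24 at 0.5 nM, and 10.12, 10.20 and 10.36 at 5 µM. The 5 µM arrays included both the lowest and the highest HK1 value of the 9, so the groups overlapped. The difference was -0.02 ± 0.07 (SE, n = 3 per group) at 5 µM, 0.04 ± 0.07 at 0.5 nM and -0.06 ± 0.07 between the doses.

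PFKM is the muscle-type subunit of phosphofructokinase, the enzyme of the committed step. Its probe set read 10.33, 10.26 and 10.20 log2 in untreated cells, 10.39, 10.23 and 10.18 at 0.5 nM, and 10.26, 10.32 and 10.39 at 5 µM. No group stood apart. The means differed by 0.06 ± 0.07 (SE) at 5 µM and by 0.0047 ± 0.07 at 0.5 nM.

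Aldolase cleaves fructose 1,6-bisphosphate into a pair of trioses, and both measured isozymes were followed. ALDOC read 9.44, 9.24 and 9.31 log2 in untreated cells, 9.23, 9.32 and 9.35 at 0.5 nM, and 9.09, 9.11 and 9.12 at 5 µM. The untreated and 0.5 nM arrays interleaved, and all 3 arrays at 5 µM lay below all other 6, by a gap of 0.12 log2 to the nearest untreated array and 0.11 to the nearest at 0.5 nM. ALDOC averaged 9.11 ± 0.01 at 5 µM and 9.33 ± 0.10 in untreated cells (SD, n = 3 each). The difference of -0.22 ± 0.06 (SE) had a 95% interval of -0.36 to -0.09, which is 77.9% to 94.2% of the untreated level before any correction for the number of probe sets. It ranked 65 among 5831 by p (unadjusted p = 0.0045, limma's adjusted p = 0.40), and 2.21% of all probe sets had a more negative difference. Without untreated replicate 1, the highest ALDOC array, the difference was -0.17 ± 0.06 and limma's adjusted p was 0.793.

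At 0.5 nM ALDOC differed from untreated cells by -0.03 ± 0.06 (SE, limma's adjusted p = 0.9999), with a 95% interval of -0.17 to 0.11. Between the doses the difference was -0.20 ± 0.06 (SE), with an interval of -0.33 to -0.06. Limma's adjusted p was 0.861, so the direct test did not separate 5 µM from 0.5 nM either. The 2 comparisons that include the 5 µM arrays share those arrays and are not independent of each other.

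ALDOA, the widely expressed aldolase, read 11.50, 11.39 and 11.58 log2 in untreated cells, 11.56, 11.73 and 11.63 at 0.5 nM, and 11.51, 11.45 and 11.66 at 5 µM. Its highest array was 0.5 nM replicate 2, the next was 5 µM replicate 3, and the groups overlapped. The difference was 0.05 ± 0.08 (SE) at 5 µM and 0.15 ± 0.08 at 0.5 nM. For the 0.5 nM difference limma's unadjusted p was 0.0702 and its adjusted p 0.9999. The array maker marks the ALDOA probe set as one that may cross-hybridise, and those of PFKM, TPI1, PGK1, ENO1 and LDHA as shared by several transcripts, so signal from near-identical copies cannot be told apart.

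TPI1 interconverts the trioses made by aldolase. It was the steadiest enzyme, with a range of 0.13 log2 over the 9 arrays, from 11.61 to 11.74. The TPI1 means were 11.67 ± 0.06 in untreated cells, 11.68 ± 0.06 at 0.5 nM and 11.64 ± 0.03 at 5 µM (SD, n = 3 each).

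PGK1 makes the first ATP of the pathway. It read 11.41, 11.40 and 11.38 log2 in untreated cells, 11.41, 11.42 and 11.23 at 0.5 nM, and 11.31, 11.36 and 11.32 at 5 µM. The 5 µM arrays lay below the untreated ones by a gap of 0.02, and the 0.5 nM arrays spanned both. The difference at 5 µM was -0.07 ± 0.06 (SE, 95% interval -0.20 to 0.06, limma's adjusted p = 0.870).

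Enolase forms phosphoenolpyruvate near the end of the pathway. ENO1 read 12.22, 12.08 and 12.04 log2 in untreated cells, 12.14, 11.94 and 11.99 at 0.5 nM, and 12.03, 11.96 and 12.00 at 5 µM. All 5 µM arrays were below all untreated arrays, but the gap was only 0.0056 log2. The ENO1 difference at 5 µM was -0.12 ± 0.07 (SE, limma's adjusted p = 0.793), and -0.06 ± 0.07 without untreated replicate 1, its highest array.

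ENO2, the neuronal enolase, was the most variable of the 9, with a range of 0.48 log2. It read 8.76, 8.71 and 8.83 log2 in untreated cells, 8.85, 8.99 and 8.81 at 0.5 nM, and 8.75, 8.83 and 9.19 at 5 µM. A single array, 5 µM replicate 3, held the highest value. The other 5 µM arrays, at 8.75 and 8.83, were close to the untreated range of 8.71 to 8.83. The difference at 5 µM was 0.16 ± 0.10 (SE, limma's adjusted p = 0.820), and 0.02 without that array. At 0.5 nM it was 0.11 ± 0.10.

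LDHA reduces pyruvate to lactate and so regenerates the NAD that glycolysis uses. Its probe set ranged from 11.84 to 12.03 log2 over all arrays. LDHA averaged 11.96 ± 0.06 in untreated cells, 11.89 ± 0.05 at 0.5 nM and 11.95 ± 0.06 at 5 µM (SD, n = 3 each). The 5 µM difference of -0.0076 ± 0.06 (SE) was the smallest in size of the 9 enzymes.

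**Figure D2:**
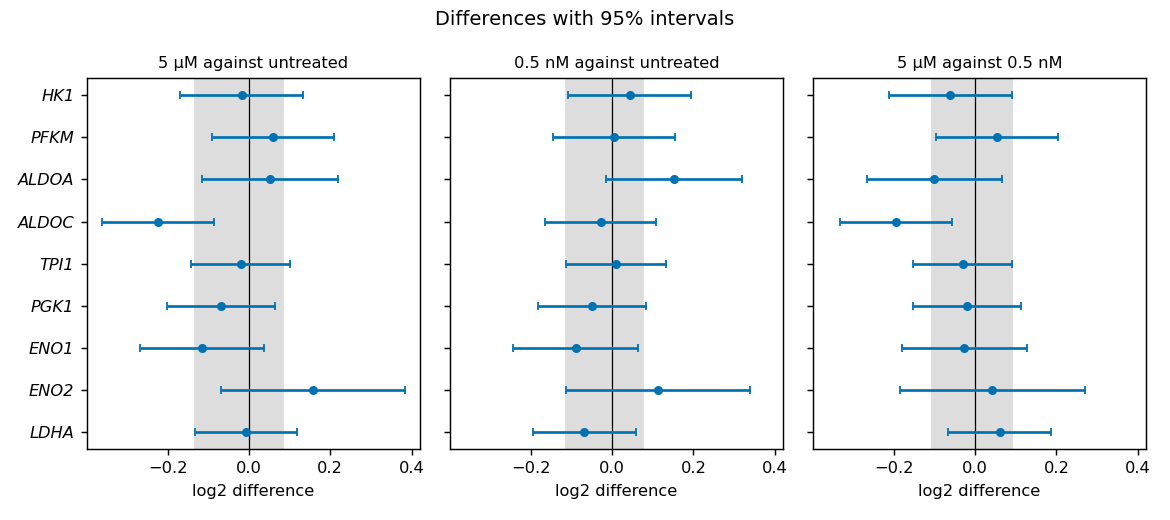
Log2 difference of each enzyme (horizontal axis) in the 3 comparisons, with the 95% interval of the fit as bars, not adjusted for multiple tests. Grey bands span the 10th to 90th percentile of all tested probe sets, and at 5 µM against untreated 8 of the 9 intervals include 0, the exception being ALDOC.

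Across the 9 enzymes, 6 lay lower and 3 higher at 5 µM than in untreated cells, with a median of -0.02 log2 beside -0.02 over all probe sets. In 3 of them, ALDOC, PGK1 and ENO1, every 5 µM array was below every untreated array, a pattern held by 9.47% of all probe sets. In the other direction the count was 0 of 9, against 2.86% of all probe sets. At 0.5 nM 4 lay lower and 5 higher, with a median of 0.0047 against -0.02 over all probe sets, and all 9 overlapped with untreated, where 5.01% of all probe sets were lower and 1.97% higher without overlap. Between the doses 1 of the 9, ALDOC, was lower without overlap, against 4.63% of all probe sets, and 0 were higher, against 2.35%. The intervals give the sizes these arrays could show: the lowest bound at 5 µM was -0.36 log2, for ALDOC, and the highest was 0.38, for ENO2. For HK1, PFKM, TPI1, PGK1 and LDHA the 5 µM intervals stayed between -0.20 and 0.21 log2. On 5 µM replicate 1 every enzyme read below its mean over the 9 arrays, with a mean deviation of -0.068 log2. The mean deviation of the other arrays lay between -0.037 and 0.049. The highest and lowest values were spread over several arrays. Untreated replicate 1 was the highest array for ALDOC and ENO1 but the lowest for TPI1, and 0.5 nM replicate 2 was the highest for 3 enzymes and the lowest for 2.

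The bases upstream of ALDOC, PGK1 and ENO1 are shown because these were the enzymes whose 5 µM arrays did not overlap with the untreated arrays. Each run is the 250 bases before the gene's start in RefSeq (GRCh38.p14), 5' to 3' on the gene's strand. ALDOC lies at chr17:28576896-28577145 on the minus strand, PGK1 at chrX:78103998-78104247 on the plus strand and ENO1 at chr1:8878687-8878936 on the minus strand. Capitals mark ACGTG, the core of the hypoxia response element, on either strand (ACGTG or CACGT), so that CACGTG, the E-box that MYC-family proteins bind, is 2 overlapping matches.
ALDOC: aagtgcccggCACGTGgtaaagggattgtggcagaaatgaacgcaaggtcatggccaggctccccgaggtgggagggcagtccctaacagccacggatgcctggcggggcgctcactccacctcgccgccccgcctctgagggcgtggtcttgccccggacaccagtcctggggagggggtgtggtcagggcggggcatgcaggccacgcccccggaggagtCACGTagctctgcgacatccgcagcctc
PGK1: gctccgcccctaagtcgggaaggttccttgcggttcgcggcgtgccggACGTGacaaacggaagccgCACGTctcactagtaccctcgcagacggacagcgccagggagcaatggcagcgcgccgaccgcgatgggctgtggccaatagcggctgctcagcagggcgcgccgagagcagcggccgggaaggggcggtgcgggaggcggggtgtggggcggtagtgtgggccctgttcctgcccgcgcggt
ENO1: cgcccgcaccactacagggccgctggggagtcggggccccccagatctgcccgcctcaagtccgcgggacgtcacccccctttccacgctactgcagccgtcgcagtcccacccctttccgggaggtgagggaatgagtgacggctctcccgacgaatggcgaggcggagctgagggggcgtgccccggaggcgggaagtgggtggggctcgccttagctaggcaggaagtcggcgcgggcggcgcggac
ALDOC had 3 matches of ACGTG, 2 of them within an E-box, PGK1 had 2 and ENO1 had none in this window. Each of the printed runs, that of ENO1 included, holds GCGTG unmarked, so no match here does not mean no core. Counting every listed start of a gene, 7 of the 9 enzymes had a match in at least 1 window, HK1 and ENO1 being the others. The motif stood in 21.7% of the 27305 genes in the table and in 18.5% of all 35116 windows of the same length. The E-box stood in 3 of the 9 and in 7.73% of genes. Genes with several listed starts, such as HK1 and PFKM with 7 each, have more windows in which a match can occur.

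The isozyme pairs were compared within arrays, which cancels what an array adds equally to both probe sets. The measure is the log2 difference between the probe sets of a pair, relative to its own mean over the 9 arrays. For ALDOC minus ALDOA it was 0.25, 0.16 and 0.05 in untreated cells, -0.01, -0.10 and 0.03 at 0.5 nM, and -0.11, -0.03 and -0.23 at 5 µM. Every treated array was below every untreated array, and the doses overlapped. How many other pairs of probe sets show this pattern was not computed. The highest treated array, at 0.031, was close to the lowest untreated array, at 0.048. Taken singly, ALDOC differed from untreated cells by -0.03 at 0.5 nM and -0.22 at 5 µM, and ALDOA by 0.15 and 0.05. The measure differed by -0.27 between 5 µM and untreated cells, averaging -0.12 ± 0.10 at 5 µM and 0.15 ± 0.10 in untreated cells (SD, n = 3 each, exact two-sided permutation p = 0.1). The difference at 0.5 nM was -0.18 (exact p = 0.1) and between the doses -0.09 (exact p = 0.2). After quantile normalization the 0.5 nM difference was -0.14 (exact p = 0.2). The difference between the doses was -0.04 without 5 µM replicate 3 and -0.14 without 5 µM replicate 2. With 3 arrays against 3 the smallest p this test can give is 0.1, so it could not pass a threshold of 0.05.

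The enolase pair was compared in the same way. For ENO2 minus ENO1 the measure was -0.28, -0.18 and -0.02 in untreated cells, -0.10, 0.23 and 0.0007 at 0.5 nM, and -0.10, 0.06 and 0.37 at 5 µM. Both treated groups overlapped with the untreated arrays. The difference was 0.27 at 5 µM and 0.20 at 0.5 nM (exact two-sided permutation p = 0.2 each). The 5 µM difference was 0.14 without 5 µM replicate 3, and the 0.5 nM difference was 0.11 without 0.5 nM replicate 2. Adjusted over the 6 comparisons of isozyme pairs, the lowest of these exact p-values was 0.24.

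**Figure D3:**
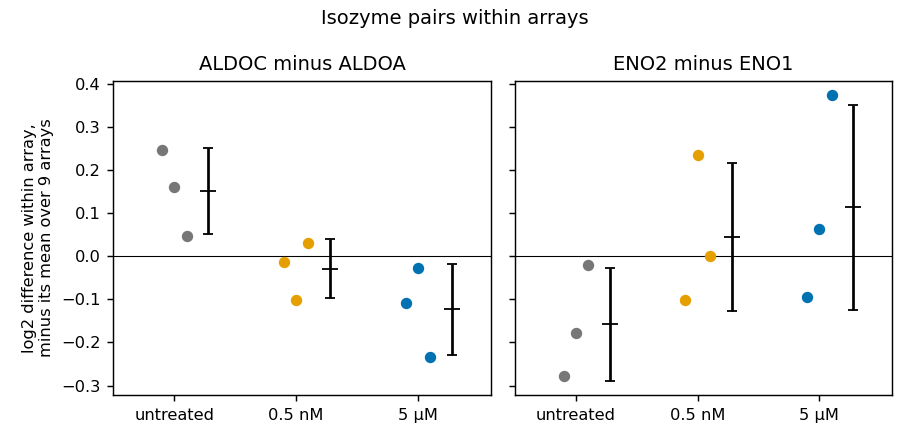
Within-array log2 difference of the aldolase pair (left) and the enolase pair (right), each minus its mean over the 9 arrays, in untreated cells, at 0.5 nM and at 5 µM S100B. Points are arrays and bars the mean ± SD (n = 3), and for the aldolases the untreated arrays, 0.05 to 0.25, lie above all 6 treated arrays.

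The rest of the pathway and its neighbours were read from lists of textbook members. Together with the 9 enzymes, 43 genes lay above the filter, and 0 passed in any comparison by limma. At 5 µM 4 of the 43 had an unadjusted p under 0.05 (9.3%), against 6.84% of all probe sets, at 0.5 nM 1 (2.33%) against 3.29%, and between the doses 2 (4.65%) against 4.65%. PFKFB3, counted both at 5 µM and at 0.5 nM, was tested only because of its treated arrays, as described below.

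Of 17 other glycolytic enzymes, 14 had a probe set and 11 lay above the filter. The median of those 11 at 5 µM was -0.04 against -0.02 over all probe sets. The member with the smallest p was the pyruvate kinase PKM, which makes pyruvate. It averaged 10.53 ± 0.14 log2 at 5 µM and 10.75 ± 0.18 in untreated cells (SD, n = 3 each). The PKM difference was -0.23 ± 0.10 (SE, limma's adjusted p = 0.707), with overlapping arrays, and it was -0.12 ± 0.10 between the doses. At 0.5 nM the smallest p was that of the platelet-type phosphofructokinase PFKP, at -0.13 ± 0.07 (limma's adjusted p = 0.9999), and the list median was -0.07.

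Of 21 glucose and lactate transporters and regulators of glycolytic flux, 17 had a probe set and 12 lay above the filter. The medians of those 12 were -0.0051 at 5 µM, -0.01 at 0.5 nM and -0.01 between the doses. PFKFB3, which makes the fructose 2,6-bisphosphate that activates phosphofructokinase, had the smallest p at both doses. It averaged 6.06 ± 0.02 log2 at 5 µM and 5.93 ± 0.05 in untreated cells (SD, n = 3 each), with no overlap of the arrays. The PFKFB3 difference was 0.12 ± 0.05 (SE) at 5 µM and 0.11 ± 0.05 at 0.5 nM, both against the same untreated arrays (limma's adjusted p = 0.700 and 0.9999). The filter removed means up to 5.95, and the untreated PFKFB3 mean alone lay below that, so the gene was tested only because of its treated arrays and a higher treated level was built into its passing. It is also the 1 gene counted at 0.5 nM among the 43, and 1 of the 4 counted at 5 µM. Between the doses the smallest p was that of PDK2, a kinase that inhibits pyruvate dehydrogenase, at -0.10 ± 0.07.

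In the pentose phosphate pathway, which branches off after the hexokinase step, 4 of 7 genes had a probe set, and all 4 were tested. PGD, which makes ribulose 5-phosphate and NADPH, had the smallest p at 5 µM. It averaged 10.39 ± 0.12 log2 at 5 µM and 10.53 ± 0.02 in untreated cells (SD, n = 3 each), a difference of -0.14 ± 0.06 (SE, limma's adjusted p = 0.740), and it differed by -0.15 ± 0.06 between the doses. The list median was -0.08 at 5 µM, 0.02 at 0.5 nM and -0.10 between the doses, and the smallest p at 0.5 nM was that of the lactonase PGLS at 0.09 ± 0.07. Of 12 genes of neighbouring glycogen and triose metabolism 9 had a probe set and 7 were tested. The aminotransferase GOT1 was at -0.12 ± 0.05 (SE) at 5 µM (limma's adjusted p = 0.721) and -0.09 ± 0.05 between the doses, and the glycogen synthase GYS1 at 0.17 ± 0.08 at 0.5 nM. Their list medians were -0.02, -0.0003 and -0.04 in the 5 µM, 0.5 nM and between-dose comparisons.

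**Figure D4:**
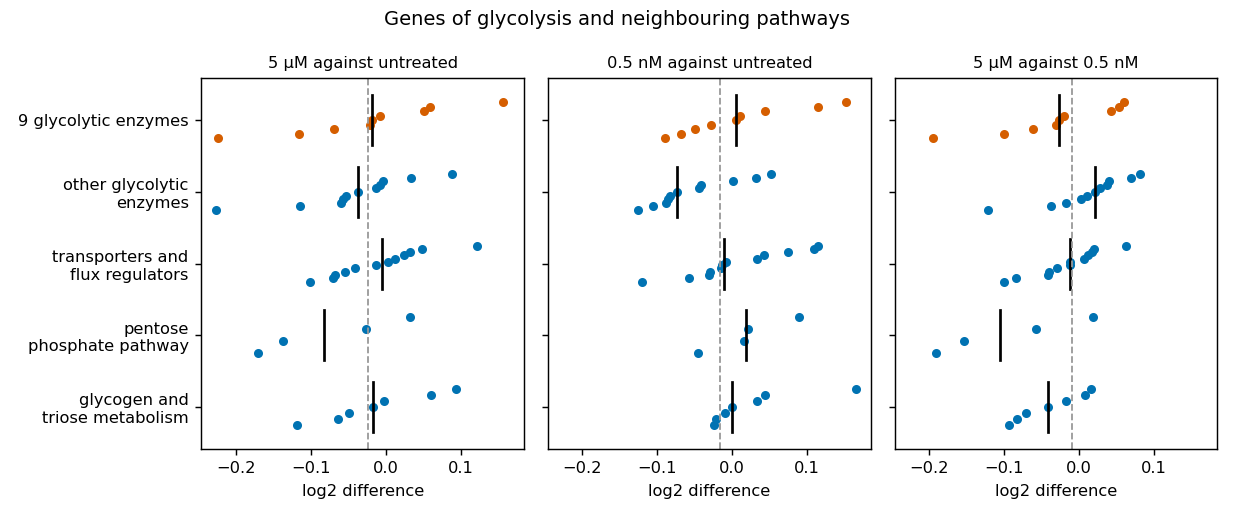
Log2 differences (horizontal axis) of the 9 glycolytic enzymes (orange) and of the other tested genes of 4 pathway lists (blue) in the 3 comparisons. Each point is a gene, black bars are list medians and dashed lines the median over all tested probe sets, and at 5 µM the most negative points are PKM at -0.23 and ALDOC at -0.22.

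The genes whose profile over the 9 arrays was most like that of ALDOC were found by the SD of the difference between the profiles, each set to its own mean. ALDOC itself had an SD of 0.12 log2 over the arrays. The closest were ACSL1, which activates long-chain fatty acids, at 0.053, the kinase PIM2 at 0.055, SURF2 at 0.055, the DNA ligase LIG3 at 0.058 and PHTF1 at 0.060. Their differences at 5 µM were -0.21 for ACSL1, -0.13 for PIM2, -0.26 for SURF2, -0.17 for LIG3 and -0.13 for PHTF1, and none passed (limma's adjusted p = 0.185 to 0.724). Among the enzymes, ENO1 was the nearest to ALDOC at 0.116, and the others ranged from 0.124 for PGK1 to 0.214 for ENO2. A profile without any change over the arrays would be at ALDOC's own SD, 0.121, so no enzyme followed ALDOC closely. ACSL1 and the other closest genes were picked for their likeness among 5831 probe sets, so the values are a description.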

How the data were processed

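Affymetrix arrays measured total RNA of LAN-5 cells in 3 groups of 3. The authors deposited log2 probe set values, made with GCRMA per the submitters' processing notes (version not given in the sources used here). Their span, 4.37 to 14.5, is the basis for taking them as log2. GCRMA can compress differences near the background, and the number of arrays limits precision.

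From 8793 probe sets the 47 controls and the 2915 dimmest (mean over all arrays up to 5.95) were removed, leaving 5831. Symbols were updated by Entrez identifier through RefSeq, which matched 7838 of 7840 probe sets with 1 symbol. Limma 3.58.1 (R 4.3.3, lmFit and eBayes) was fitted to all 9 arrays with group as the factor, and p-values were adjusted by Benjamini-Hochberg over the 5831 probe sets, with 0.05 as the threshold. SE is of the fit, SD over arrays.

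All enzymes are named. For each pathway list, genes past the threshold are named, and where there are none, the gene of lowest p. The members and lists were chosen with earlier results of these data known. The alternatives were other filters, normalizations, variance models and blocks, and leaving out arrays.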

Additional observations from a re-analysis of the deposited data

How the results depend on the processing

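No enzyme passed in any comparison under any of the 17 alternatives of the fit. Of the 459 differences of enzymes recomputed, 27 changed sign, all in results of at most 0.0514 log2 in size, and 0 passed. Many of the 459 could not change sign, so this count overstates how often the sign was tested. The filters, variance models, replicate block and fit to only the compared groups leave a difference as it was. So does leaving out an array of a group outside the comparison. All 27 came from the normalizations or from leaving out an array of a compared group. After quantile normalization the 5 µM difference was 0.021 for LDHA, 0.0019 for HK1 and 0.013 for TPI1, and TPI1 was at -0.0088 at 0.5 nM and 0.022 between the doses. After median centring it was 0.0155 for LDHA, 0.0049 for HK1 and 0.0027 for TPI1 at 5 µM. The cause was not tested. Leaving out 1 array gave, at 5 µM, -0.039 to 0.028 for LDHA, -0.086 to 0.034 for HK1, -0.049 to 0.0101 for TPI1 and -0.0092 to 0.097 for ALDOA. At 0.5 nM it gave -0.074 to 0.026 for ALDOC, -0.058 to 0.049 for PFKM, -0.023 to 0.0405 for TPI1 and -0.082 to 0.012 for PGK1. Between the doses it gave -0.0901 to 0.13 for ENO2, -0.081 to 0.01295 for PGK1, -0.0697 to 0.032 for ENO1, -0.057 to 0.0030 for TPI1 and -0.061 to 0.17 for ENO2 minus ENO1. ALDOC at 5 µM lay between -0.27 and -0.17 under the normalizations and with a 5 µM or untreated array left out. The other alternatives could not change its difference. Over all 17 its adjusted p (limma or the unmoderated test) ran from 0.334 to 0.793.

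Over all probe sets, 17 passed at 5 µM and 15 between the doses. These counts were 1 and 1 with an unmoderated test, 7 and 4 with only the 2 groups compared, and 4 to 17 and 3 to 14 with 1 array left out. The replicate numbers were not taken as pairs, since 4 of 9 same-numbered pairs had a correlation of deviations over 0.1. It was 0.03 to 0.07 for replicate 1, -0.0003 to 0.23 for replicate 2 and 0.298 to 0.33 for replicate 3, whose arrays deviated together in all 3 groups, and 3 of 9 arrays correlated best with their own number in both other groups. With the replicate block 15 and 15 passed, no enzyme among them, and no call on an enzyme changed. In exact paired tests of the isozyme pairs p was 0.25 to 0.75. The mean of a gene's probe sets equals the reported value, since each enzyme has 1 probe set.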
